A study of Mus musculus with 37 samples.

Results

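The interleukin-1 family genes described here were the 9 symbols Il1a, Il1b, Il1rn, Il1r1, Il1r2, Il18, Il33, Il1rl1 and Il1rap, taken by name from the 24421 gene symbols of a mouse whole transcriptome sequencing (WTS) count table. The rule goes by symbol, though the list was drawn up with earlier results of these data known, and all 9 were present and passed the filter on low counts. The tissue came from wild-type female BALB/c mice, some given the carcinogen N-butyl-N-(4-hydroxybutyl)nitrosamine (BBN) for 18 weeks and some given none; the labels state no age. From 10 BBN-treated mice came 11 libraries of the ureter on the side with upper tract urothelial carcinoma (UTUC), called UT (mouse 5 gave both ureters), 7 of the ureter on the side without it, called UN, and 10 of the bladder, called BBN bladder. From 3 untreated mice came 6 ureter libraries, called U, both ureters of each, and 3 bladder libraries, called untreated bladder. The 6 U libraries therefore rest on 3 animals. By its label UN is the non-cancer side of an animal with cancer on the other side, not tissue of a tumor-free animal. The descriptions of ureter libraries carry a T for the cancer side and an N for the other side, and that of BBN bladder 6 also carries a T, whereas the other 9 BBN bladders carry an N; what the letters mean for a bladder is not spelled out. The pieces are bulk tissue with all their cell types.

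Interleukin-1 alpha and beta are inflammatory ligands that signal through the receptor Il1r1 once it pairs with the accessory chain Il1rap, and both arms are held back, by the antagonist Il1rn at the receptor and by Il1r2, a decoy that binds ligand without signalling. Interleukin-33 is stored in the nucleus of epithelial and stromal cells and, when released, acts through Il1rl1 (ST2) with the same accessory chain; interleukin-18 is made as a precursor by epithelium and myeloid cells and acts through receptors of its own. In the bladder and other barrier tissues these cytokines are known as early signals of injury and as drivers of neutrophil recruitment.

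Library depth ran from 3557697 to 18793560 counts, and 4 shallow libraries, UN 6 and BBN bladders 1, 3 and 4, lay below all others. In these 4 the 10 most abundant genes took 21.5% to 35.5% of the counts, where no other library exceeded 17.5%, and their TMM factors were 0.571 to 0.682. UN 6 holds the lowest UN value of 5 members (Il1b, Il1rn, Il1r1, Il18 and Il33), and the part of this difference between libraries was not tested. RNA integrity, known per library, entered an alternative fit as a covariate, but its values by library are not given here. Of the 333 values of the members (9 genes in 37 libraries), 0 were at 0 counts and 6 rested on 3 counts or fewer, so that single values of Il1a in U, UN 6 and UN 9 and of Il1b in UN 6 carry a wide counting error. Levels below are CPM, a gene's share of the counts of its library, with library sizes scaled by TMM factors. The labelled tissue was checked against urothelial markers (uroplakins and keratins): 36 of the 37 libraries held from 906 CPM upwards in sum, while UN 2 held 37.3 CPM, beside 80816 CPM of adipocyte markers and 3763 CPM of macrophage markers. Kidney tubule markers reached 1923 CPM in UT 4 and at most 64.4 CPM in the others. UT 9 had the lowest urothelial sum and the lowest squamous keratinocyte sum of its group, 906 and 188 CPM. The counts of called members are given without UN 2, UT 4 and UT 9 below.

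Across the comparisons, a gene was called when its false discovery rate (FDR) in edgeR was under 0.1 and its fold change at least 2, and each adjusted p was corrected over all 18959 genes tested. In UN against U, 7 of 9 members were called higher and 0 lower, against a background of 8.44% of all tested genes called higher and 0.971% called lower. In UT against U, again 7 were higher and 0 lower, against 16.5% and 9.96% of all genes. The 7 were Il1a, Il1b, Il1rn, Il1r1, Il1r2, Il18 and Il33 in both of these comparisons, which share the U libraries. In BBN bladder against untreated bladder, 6 members were higher and 0 lower, against 21.7% and 8.14% of all genes, with Il1r1 the one missing. Between the sides of the BBN-treated ureter, UT against UN, 0 members were called higher and 0 lower, against 0.886% and 1.71% of all genes, and 1 member, Il1a, had an unadjusted p under 0.05. The BBN effect of the ureter (UN against U) minus that of the bladder was called for 0 members, against 1.74% higher and 0.469% lower of all genes, with an unadjusted p under 0.05 for Il1r1 and Il18. Between untreated tissues, bladder against U, 0 members were called, against 8.61% higher and 6.62% lower, with an unadjusted p under 0.05 for Il1r2. The median log2 fold change of the 9 members was 3.04 in UN against U and 3.77 in BBN bladder against untreated bladder, where the medians of all genes were 0.20 and 0.23. Without UN 2, UT 4 and UT 9, the called members numbered 6 in UN against U, 7 in UT against U, 0 in UT against UN and 6 in the bladder. The U libraries come in pairs from 3 mice, and the calls of UN against U varied with how the mouse entered the fit. With the mouse as a random-effect replicate block, run in limma, 3 members (Il1rn, Il18 and Il33) were called. With libraries summed per mouse and group only Il1rn was, and the cause of the lost calls was not tested. In UT against U, summing left 6 called, without Il18.

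**Figure D1:**
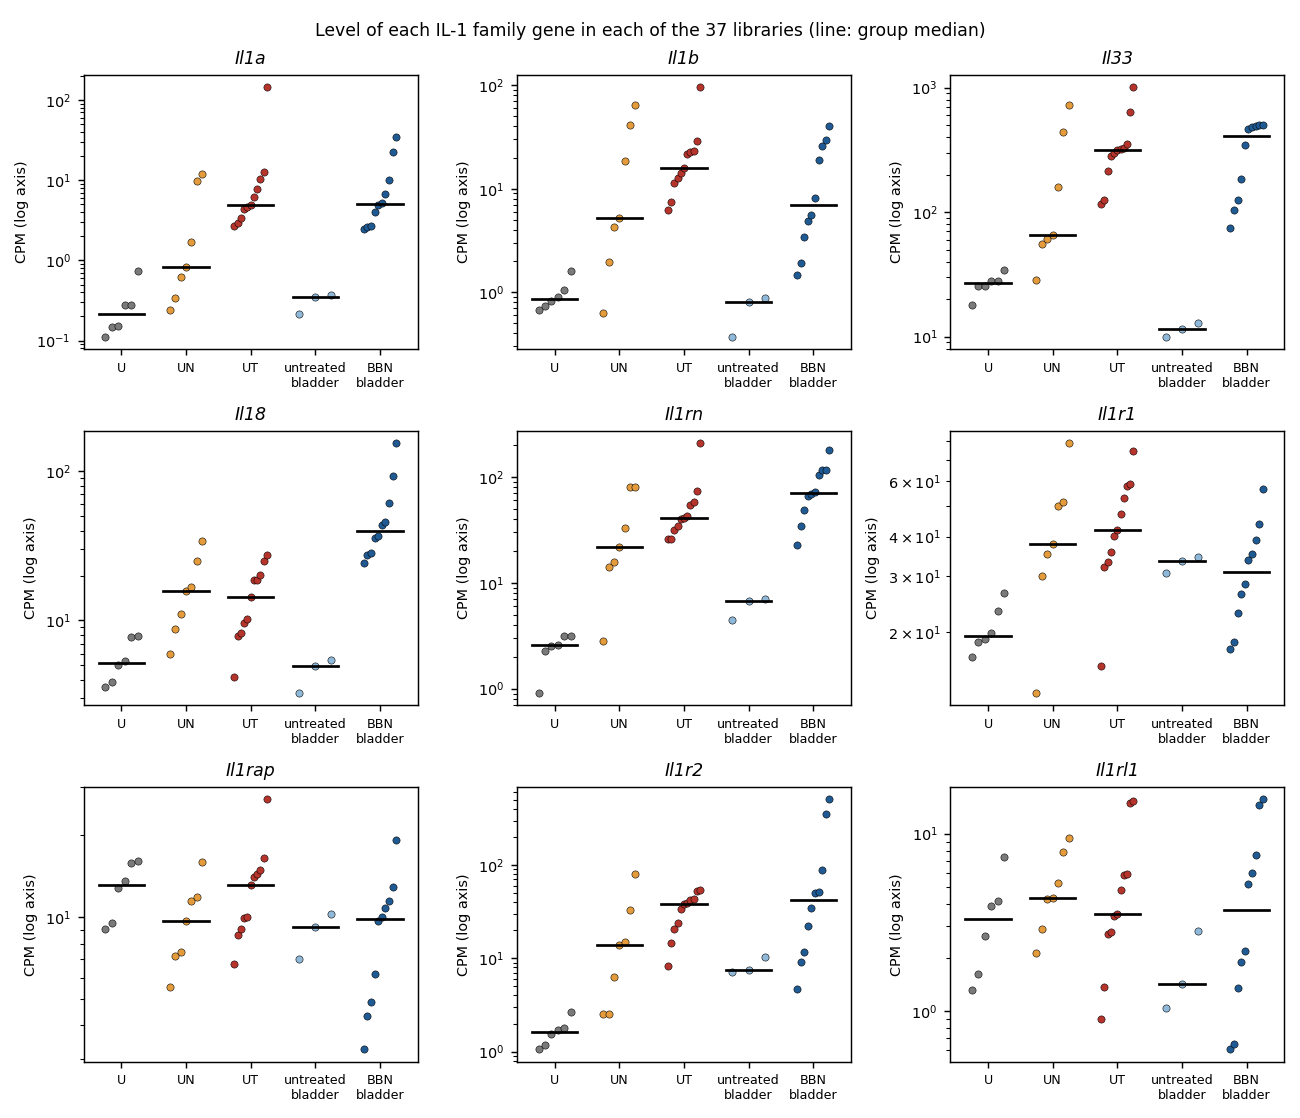
Level of each member in each library, in CPM on a log axis, by group; each point is 1 library and the line is the group median. For Il1a, Il1b, Il1rn, Il1r2 and Il33 the 6 U libraries lie below all UT libraries, and the 7 UN libraries spread from the U range to above the UT median.

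On GRCm38, Il1a (chr2:129299610-129309972) and Il1b (chr2:129364570-129371139) are neighbours on the minus strand, with Il1rn (chr2:24336853-24351494) on the same chromosome. The receptors Il1r2 (chr1:40074079-40125231), Il1r1 (chr1:40225080-40317257) and Il1rl1 (chr1:40429570-40465415) form a cluster, whereas Il18 (chr9:50554827-50581840), Il33 (chr19:29925114-29960718) and Il1rap (chr16:26581704-26730117) stand alone. The libraries carry no strand, so reads could not be told apart between Il1a and the opposite-strand Gm14023 over 222 shared exon bases, between Il1b and Il1bos over 25, or between Il1rap and Gm20319 over 552.

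The promoters of the ligands and the antagonist that moved most are shown because their levels changed together. RefSeq (GRCm38.p6) windows of 250 bases before to 50 after a start site were found for 9 of 9 members, 14 windows in all. Each was searched on both strands for the NF-kB letters GGGNNNNNCC, the AP-1 letters TGANTCA and the TATA box letters TATAAA; the capitals below mark the matches, and positions count from the start site as 0.
Il1a, chr2:129309923-129310222, minus strand: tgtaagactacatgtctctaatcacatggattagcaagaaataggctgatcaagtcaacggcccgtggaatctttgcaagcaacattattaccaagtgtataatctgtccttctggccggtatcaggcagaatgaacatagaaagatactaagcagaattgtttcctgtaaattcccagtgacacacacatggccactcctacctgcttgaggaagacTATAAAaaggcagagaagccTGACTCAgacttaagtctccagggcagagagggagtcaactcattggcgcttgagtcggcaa
Il1b, chr2:129371090-129371389, minus strand: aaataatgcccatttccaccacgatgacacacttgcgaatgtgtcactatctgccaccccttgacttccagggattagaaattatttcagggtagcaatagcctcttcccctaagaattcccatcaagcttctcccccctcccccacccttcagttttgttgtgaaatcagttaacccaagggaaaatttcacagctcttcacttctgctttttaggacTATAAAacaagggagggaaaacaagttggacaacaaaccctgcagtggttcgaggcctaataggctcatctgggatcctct
Il1rn, chr2:24336610-24336909, plus strand: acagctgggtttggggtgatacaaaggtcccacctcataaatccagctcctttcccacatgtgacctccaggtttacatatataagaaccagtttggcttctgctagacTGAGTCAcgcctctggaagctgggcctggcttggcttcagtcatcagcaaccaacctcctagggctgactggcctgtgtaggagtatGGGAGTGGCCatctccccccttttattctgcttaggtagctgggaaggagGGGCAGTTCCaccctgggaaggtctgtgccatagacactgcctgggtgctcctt
Il33, chr19:29945540-29945839, plus strand: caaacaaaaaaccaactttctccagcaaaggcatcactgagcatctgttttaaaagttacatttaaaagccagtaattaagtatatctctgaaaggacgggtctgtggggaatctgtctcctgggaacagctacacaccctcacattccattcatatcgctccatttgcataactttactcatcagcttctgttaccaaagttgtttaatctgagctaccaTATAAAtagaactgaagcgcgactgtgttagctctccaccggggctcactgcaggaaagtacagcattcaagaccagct
Il1a carried TATAAA at -32 and an AP-1 match at -12, and Il1b carried TATAAA at -31 with no match to the other motifs. The Il33 window shown is the second of its 2 starts, with TATAAA at -29, while the other start had the letters only at -203. Il1rn had no TATAAA in the window shown, an AP-1 match at -141 and NF-kB matches at -54 and -4. Over all members, TATAAA was found in 6 of the 14 windows, AP-1 in 2 and NF-kB in 5, where the share of all 32841 promoter windows searched was 13.6%, 7.81% and 50.8%. Windows of 1 gene are not independent, since some overlap.

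Il1a, which encodes the membrane-held and epithelial form of the ligand, was close to the detection limit in untreated tissue. In U it ranged from 0.112 to 0.737 CPM with a median of 0.214, and the untreated bladders held 0.369, 0.348 and 0.214 CPM. In UN the lowest, median and highest values were 0.243, 0.816 and 12.0 CPM, and in UT 2.71, 4.95 and 145 CPM. BBN bladders ran from 2.46 through a median of 5.06 to 34.5 CPM. All 11 UT libraries lay above all U libraries and all 10 BBN bladders above the untreated ones, whereas UN overlapped with U. Of all genes tested, 7.6% had every UT library above every U library and 6.36% every BBN bladder above every untreated one. The log2 fold change was 3.70 ± 1.08 (SE) in UN against U (adjusted p = 0.0293), 6.02 ± 1.15 in UT against U (adjusted p = 0.00015, and 4.38 without UT 2) and 4.92 ± 1.49 in the bladder (adjusted p = 0.0202). Against UN, UT was higher by 2.31 ± 0.84 on the log2 scale, the largest difference between the sides among the members, at an adjusted p of 0.133. That value rested on UT 2, which held 145 CPM where the next UT library held 12.5. Without UT 2 the difference was 0.69 (adjusted p = 0.566), and without UN 3, the highest UN library, it was 2.99 (adjusted p = 0.0608). Without UN 3 the UN against U value of Il1a was 3.03 with an adjusted p of 0.102, and limma-trend gave 2.06 with an adjusted p of 0.122. Without untreated bladder 3 the bladder value was 4.71 at an adjusted p of 0.108.

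Il1b, the secreted ligand of myeloid cells, was likewise lowest in the untreated tissues, and its UN libraries spread widely. U ranged from 0.670 to 1.61 CPM (median 0.856), and the untreated bladders held 0.369, 0.869 and 0.803 CPM. UN ranged from 0.628 to 64.2 CPM around a median of 5.26, and UT from 6.24 to 96.4 CPM around 15.8. BBN bladders ranged from 1.46 to 40.0 CPM (median 6.9), with bladder 6, the one coded T, highest. UT and BBN bladder did not overlap with their untreated counterparts, while UN 6 lay below the U range on 2 counts and UN 3 reached the second highest level of all ureters. Il1b was higher than U by 4.33 ± 0.89 in UN (adjusted p = 0.00196, and 3.64 without UN 3) and by 4.61 ± 0.87 in UT (adjusted p = 0.00014) on the log2 scale, and the bladder difference was 4.35 ± 1.20 (adjusted p = 0.0109). UT and UN differed by 0.28 ± 0.64, with an interval from -1.03 to 1.58 and an adjusted p of 0.822, and the sign turned to -0.25 without UT 2. In these tissue pieces more cells of a type and more RNA per cell cannot be told apart. Neutrophil markers rose with the ligands: their sum was 32.6 to 46.5 CPM in U, 66.0 to 781 in UN and 51.7 to 855 in UT. Of 10 tested, 5 were called higher in UN against U and 8 in UT against U, beside 8.44% and 16.5% of all genes. Macrophage markers were called higher for 6 of 10 in each of these, with sums of 385 to 593 CPM in U, 371 to 3763 in UN and 478 to 1848 in UT. None of the detected neutrophil markers was at 0 throughout a ureter group. The part of these cells in the levels of Il1b was not tested.

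**Figure D2:**
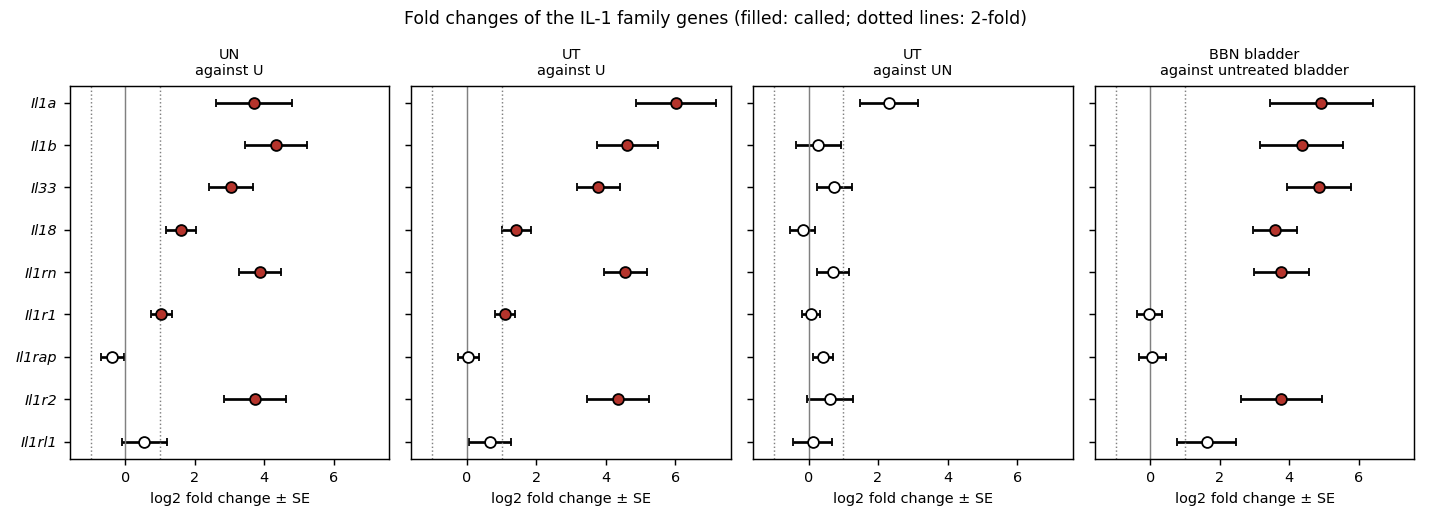
Log2 fold change of each member with its standard error in 4 comparisons; filled points were called (FDR under 0.1 and at least 2-fold) and dotted lines mark 2-fold. The 7 filled points of UN against U and of UT against U lie to the right of 1, and no member is filled in UT against UN.

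Il33, the nuclear alarmin, was the most abundant member per length in 4 of the 5 groups: its median was 9.27 CPM per kb of exon in U, 22.5 in UN, 109.2 in UT and 141.1 in BBN bladder, but 3.96 in untreated bladder, where Il1r1 (5.26) and Il18 (4.83) lay above it. In CPM, U ranged from 18.1 to 34.3 (median 26.7) and the untreated bladders held 11.4, 12.8 and 9.95. The untreated bladder values lay below every U library, as for 20.1% of all genes tested. UN ranged from 28.6 to 721 CPM with a median of 65, UT from 116 to 1011 with a median of 315, and BBN bladder from 74.6 to 503 with a median of 407. UT and BBN bladder stood clear of the untreated libraries, and UN overlapped U through UN 6 alone. The log2 fold change was 3.04 ± 0.62 in UN against U (adjusted p = 0.00196, and 2.34 without UN 3), 3.78 ± 0.62 in UT against U (adjusted p = 3.12e-05) and 4.84 ± 0.92 in the bladder (adjusted p = 0.000375), the last equal to 28.7-fold. Between the sides of the ureter the difference was 0.74 ± 0.50 (adjusted p = 0.385), and 1.44 without UN 3 (adjusted p = 0.079). The untreated bladder was lower than U by -1.22 ± 0.76 with an adjusted p of 0.352.

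Il1rl1, the receptor of interleukin-33, did not pass the test in any of the 6 comparisons. Its median was 3.29 CPM in U, 4.33 in UN, 3.53 in UT and 3.69 in BBN bladder, and the untreated bladders held 1.41, 1.04 and 2.84 CPM. The 5 groups overlapped one another, and the ranges were wide: UT ran from 0.898 to 15.2 CPM and BBN bladder from 0.608 to 15.6. Its largest difference was in the bladder, 1.62 ± 0.85 with an adjusted p of 0.15 and an interval from -0.11 to 3.35, which DESeq2 called (1.89, adjusted p = 0.0426). The Il33 to Il1rl1 ratio per kb had a median of 19.3 in both untreated tissues, 46.1 in UN, 159 in UT and 213 in BBN bladder.

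Il18, a cytokine of epithelium, had the smallest log2 fold changes of the 4 ligands in the ureter. U ranged from 3.58 to 7.86 CPM (median 5.20) and the untreated bladders held 4.98, 5.45 and 3.26 CPM. UN ranged from 5.96 to 34.0 CPM (median 15.6) and UT from 4.19 to 27.3 (median 14.3), with the lowest UT value in UT 2, the library with the most Il1a and Il1b. BBN bladders ran from 24.4 to 154 CPM with a median of 40.0, clear of the untreated bladders. The log2 fold change was 1.60 ± 0.43 in UN against U (adjusted p = 0.0185), 1.42 ± 0.41 in UT against U (adjusted p = 0.00727, and 0.1025 with libraries summed per mouse and group) and 3.58 ± 0.63 in the bladder (adjusted p = 0.000146). The ureter effect minus the bladder effect was -1.99 ± 0.68, an interval of -3.37 to -0.60, with an adjusted p of 0.166, so it was not called; DESeq2 gave -2.32 (adjusted p = 0.0315). Within mice, Il18 was lower in UT than in the bladder of the same animal in 10 of 10 mice, and lower in UN than in the bladder in 7 of 7.

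Il1rn, the receptor antagonist, had the lowest adjusted p of the members in both UN against U and UT against U. In U it ranged from 0.911 to 3.18 CPM (median 2.57), and the untreated bladders held 6.77, 4.40 and 7.01 CPM. UN ranged from 2.83 to 80.6 CPM (median 21.9), UT from 26.0 to 208 (median 41.1) and BBN bladder from 22.7 to 181 (median 70.2). UN 6, with 9 counts, was the one UN library within the range of U, and the UT and BBN bladder libraries lay above every untreated one. Il1rn was higher by 3.87 ± 0.60 in UN against U (adjusted p = 0.000169), 4.56 ± 0.61 in UT against U (adjusted p = 2.52e-06) and 3.77 ± 0.79 in the bladder (adjusted p = 0.00109) on the log2 scale. It remained called in UN against U when libraries were summed per mouse and group. Per kb of exon, the ratio of Il1rn to Il1b had a median of 1.08 in U, 1.48 in UN, 0.876 in UT, 3.01 in untreated bladder and 2.64 in BBN bladder. The ratio of Il1rn to Il1b thus spanned ranges that overlapped among the ureter groups, 0.299 to 1.48 in U, 0.183 to 2.65 in UN and 0.489 to 1.85 in UT, while antagonist and ligand each rose. Against the sum of Il1a and Il1b, the median ratio was 0.728 in U, 0.984 in UN and 0.693 in UT. It was 2.39 in untreated bladder and 1.26 in BBN bladder, with ranges of 1.26 to 3.21 and 0.404 to 6.22.

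Il1r1, the signalling receptor, had the smallest fold changes of the called members in UN and in UT against U and was not called in the bladder. U ranged from 16.7 to 26.7 CPM (median 19.5), UN from 12.9 to 78.8 (median 37.9) and UT from 15.7 to 74.7 (median 41.9). The untreated bladders held 33.5, 30.7 and 34.6 CPM, and BBN bladders ranged from 17.7 to 56.5 with a median of 31.1. UN and UT overlapped U, and the bladder groups overlapped throughout. Il1r1 was 2.05-fold higher in UN than U (log2 1.04 ± 0.31, adjusted p = 0.0321) and 2.15-fold higher in UT (log2 1.10 ± 0.29, adjusted p = 0.00339), while the bladder difference was -0.02 ± 0.36 with an interval from -0.74 to 0.70. The effect in UN against U minus that in the bladder was 1.06 ± 0.46 (adjusted p = 0.309). The UN call was lost in 7 of 13 other settings, by a log2 value under 1 in some (0.99 with RLE size factors) and by the adjusted p in others (0.294 with libraries summed per mouse and group). It was also lost without UN 1, UN 2, UN 7, U 2L or UT 9, where the log2 value was 0.81 to 0.99. Il1rap, the accessory chain shared by the interleukin-1 and interleukin-33 receptors, was called in none of the 6 comparisons. Its medians were 13.2 CPM in U, 9.70 in UN, 13.2 in UT and 9.84 in BBN bladder, and the untreated bladders held 7.01, 10.3 and 9.20. The log2 difference of Il1rap was -0.37 ± 0.33 in UN against U, 0.04 ± 0.30 in UT against U and 0.06 ± 0.39 in the bladder, with intervals that stayed between -1.03 and 0.84.

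Il1r2, the decoy receptor, rose in each of the 3 comparisons of BBN-treated with untreated tissue. U ranged from 1.06 to 2.66 CPM (median 1.62), and the untreated bladders held 7.50, 10.3 and 7.06 CPM. The untreated bladder values lay above every U library, as for 26.3% of all genes tested. UN ranged from 2.51 to 79.8 CPM (median 13.9), UT from 8.25 to 53.6 (median 38.6) and BBN bladder from 4.7 to 505 (median 42.3). UT stood clear of U, UN overlapped it in UN 6 and UN 9, and BBN bladders 6 and 7, at 505 and 351 CPM, were far above the others of their group. Bladder 6 is the one whose description carries a T. The log2 fold change was 3.73 ± 0.89 in UN against U (adjusted p = 0.00715, and 2.90 without UN 3), 4.34 ± 0.89 in UT against U (adjusted p = 0.000319) and 3.77 ± 1.16 in the bladder (adjusted p = 0.0219). The bladder value was 3.07 without BBN bladder 6, and lost its call without untreated bladder 3 (3.66, adjusted p = 0.11) and with the bladder libraries alone (3.84, adjusted p = 0.112). Untreated bladder was higher than U by 2.32 ± 0.96, adjusted p = 0.117. Per kb, the ratio of Il1r2 to Il1r1 was 0.190 to 0.333 in U with a median of 0.264, below 1 in 6 of 6 libraries. In untreated bladder it was 0.681 to 1.12 with a median of 0.748, above 1 in 1 of 3 libraries. It exceeded 1 in 4 of 7 UN, 8 of 11 UT and 8 of 10 BBN bladder libraries, with medians of 1.0, 3.12 and 4.78, and reached 95.2 in BBN bladder 6, the one coded T.

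**Figure D3:**
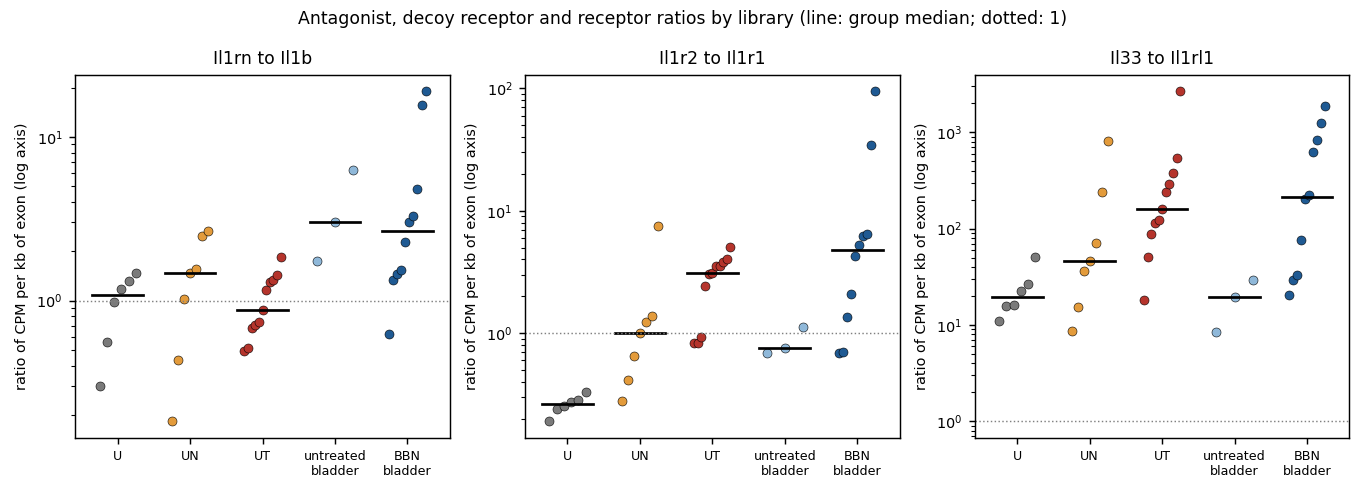
Ratios of CPM per kb of exon in each library, on a log axis, for Il1rn to Il1b, Il1r2 to Il1r1 and Il33 to Il1rl1; points are libraries, lines group medians and the dotted line is 1. The U libraries lie under 1 for Il1r2 to Il1r1 in 6 of 6, while the Il1rn to Il1b ratio of the ureter groups overlaps around 1.

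The sides of the ureter were then set against each other within the 7 mice that gave both. Il1b was higher in UT than in UN in 6 of 7 mice, with mouse 3 the exception, at a median log2 difference of 1.46 on log2(CPM + 0.5). Il1a, Il1rn, Il1r2 and Il33 were each higher in UT in 5 of 7, with median differences of 2.02, 0.97, 1.54 and 1.92, and the exceptions were mice 3 and 7 for all 4 genes. Il18 was higher in UT in 2 of 7, and Il1r1 in 4 of 7. UN 3 and UN 7 were the 2 UN libraries with the most Il1a, Il1rn, Il1r2, Il18 and Il33. They also held the most squamous keratinocyte markers of their group, 3776 and 2473 CPM in sum where the other UN libraries held 22.5 to 576 and U held 46.1 to 75.8. The levels in UT 3 and UT 7 were 1361 and 994 CPM. With the mouse as a fixed replicate block, 0 members were called between the sides, and the log2 difference of Il1b was 1.37. The part of these cells in the levels was not tested, and the labels call UN 3 and UN 7 non-cancer sides.

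**Figure D4:**
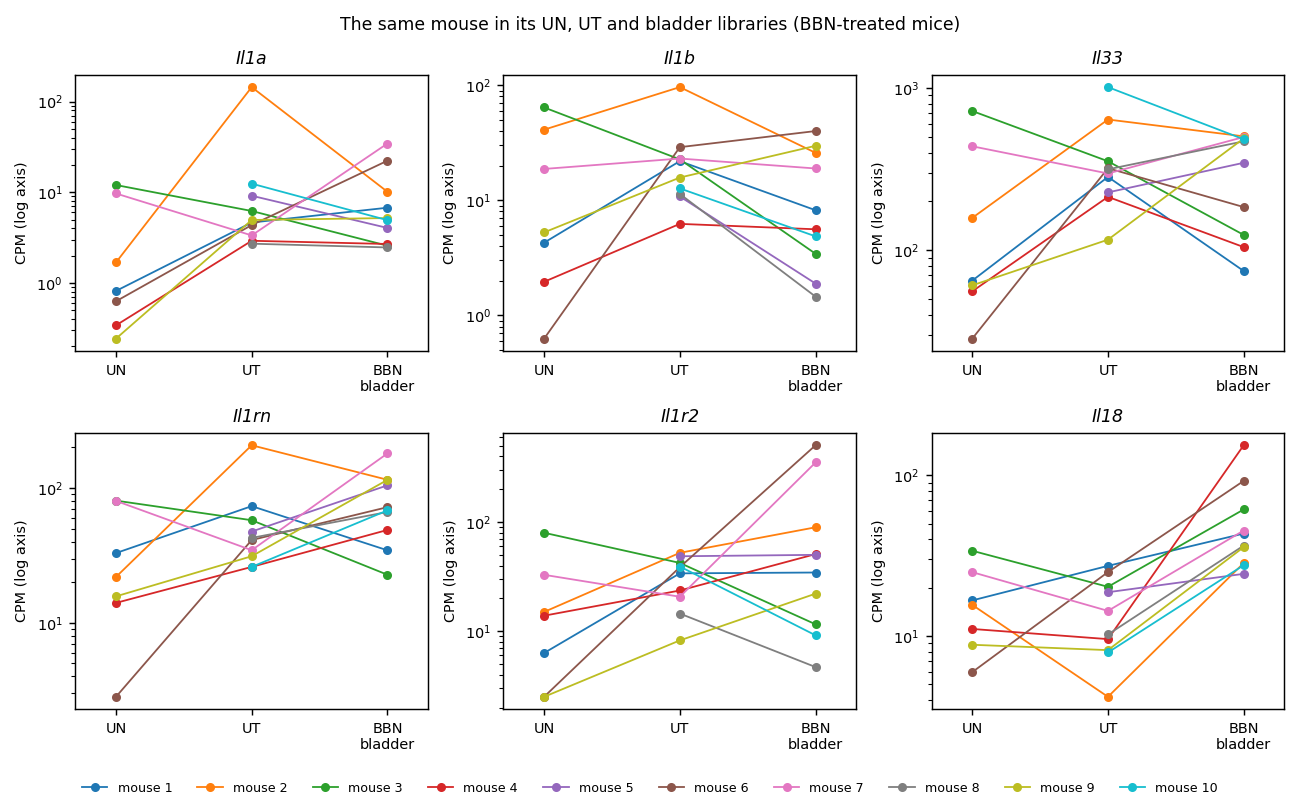
Level of 6 members in the UN, UT and bladder libraries of each BBN-treated mouse, in CPM on a log axis; each line is 1 mouse, and the 2 UT libraries of mouse 5 are averaged. Mouse 3 falls from UN to UT for Il1b while 6 mice rise, and for Il18 the bladder is the highest library of its mouse in 10 of 10.

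Squamous keratinocyte markers moved with the members in each BBN comparison. Of 11 tested, 6 were called higher in UN against U, 8 in UT against U and 10 in the bladder, where the sums were 593 to 664 CPM without BBN and 614 to 15921 CPM with it. Of all genes tested, 8.44% were called higher and 0.971% lower in UN against U. The shares were 16.5% and 9.96% in UT against U, and 21.7% and 8.14% in the bladder. Adipocyte markers moved the other way in the ureter: their sum was 47610 to 81741 CPM in U and 54.5 to 37545 CPM in UT, and 6 of 6 were called lower in UT against U, while 0 of 6 were called in UN against U. T cell markers were called higher for 7 of 9 in UT against U and 0 of 9 in UN against U. Also in UT against U, 3 of 9 mast cell and 2 of 8 fibroblast markers were called higher. There 5 of 7 smooth muscle and 1 of 7 endothelial markers were lower, the endothelial count near the share of all genes. Kidney tubule markers were called higher for 5 of 6 there, with sums of 1923 CPM in UT 4, 1.36 to 10.1 CPM in the other 10 UT libraries and 0.275 to 12.3 CPM in U. Of 10 urothelial markers, 1 was called higher (Krt5), near the share of all genes, and 1 lower (Upk1a) in UN against U. In UT against U, 3 of the 10 were higher and 3 lower. In the bladder, 5 of 10 urothelial markers were called lower, with sums of 18018 to 18926 CPM without BBN and 1774 to 7318 CPM with it. There 3 of 8 fibroblast markers (4436 to 6389 CPM without BBN, 675 to 4119 CPM with it) and 2 of 7 smooth muscle markers were also lower, and 8 of 10 neutrophil markers higher (14.3 to 17.3 CPM and 18.5 to 340 CPM). The macrophage markers Fcgr1 and Cd68 (2 of 10) and the mast cell marker Hpgds (1 of 9) were called higher there, no larger a share than the 21.7% of all genes. The part of these cells in the members' levels was not tested. Across the 37 libraries, which pool groups and tissues, Pearson's r of log2 levels with the squamous sum was 0.837 for Il1rn, 0.827 for Il1r2 and 0.789 for Il1a, and Il1b had 0.719 with the neutrophil sum and 0.651 with the macrophage sum. Il1rl1 had 0.666 with the T cell sum and 0.623 with the neutrophil sum. Il1rap had r of -0.17 with the squamous sum and 0.194 with the neutrophil sum.

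Among the members themselves, 5 genes formed the block of highest correlations. Il33 and Il1rn had r = 0.869 over the 37 libraries, Il1a and Il1rn 0.844, Il1a and Il1r2 0.831, and Il1a and Il1b 0.818. Il33 and Il1r2 had the lowest r within that block, 0.679. Il1rl1 stayed between -0.07 and 0.23 with every other member, and Il1rap between -0.37 and 0.23. These coefficients describe libraries that share groups and are no test of a link.

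**Figure D5:**
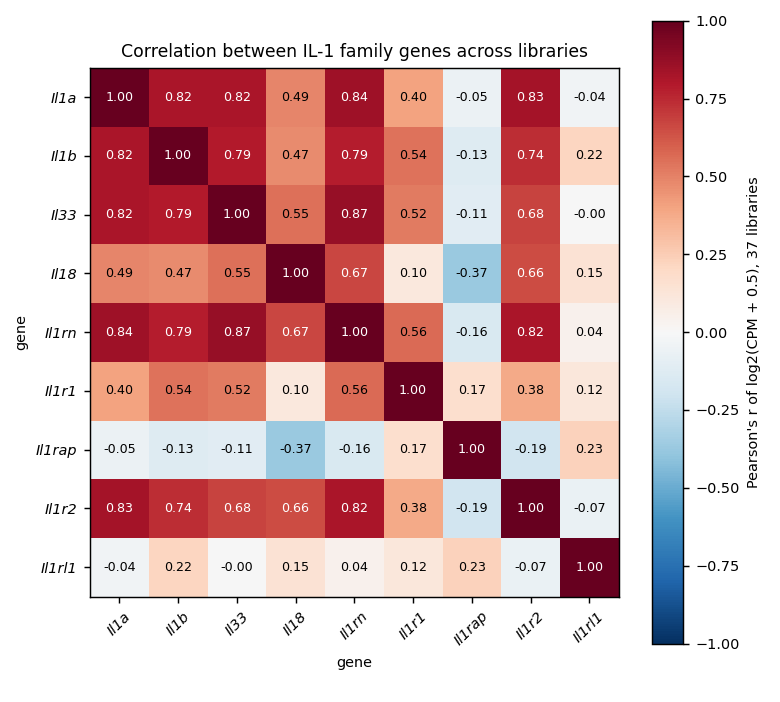
Pearson's r of log2(CPM + 0.5) between members over the 37 libraries, from blue (-1) to red (1). Il1a, Il1b, Il33, Il1rn and Il1r2 correlate at 0.68 or above with each other, while Il1rl1 runs from -0.07 to 0.23 and Il1rap from -0.37 to 0.23.

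Beyond the family, the genes whose pattern over the 37 libraries was most like each member were looked up by the highest Pearson's r of log2 levels. Nearest to Il1a was Cxcl5 (r = 0.936), a neutrophil-attracting chemokine, before Hmgb2. Il1b was nearest to Clec4n (0.910), the C-type lectin dectin-2 of myeloid cells, and to Rhog and Tnfrsf9. Il33 was nearest to Ccnb2 (0.947), Ccnb1 (0.945) and Kif2c (0.939), genes of mitosis. Il1rn lay nearest to Pdlim1 (0.929), Anxa3 and Ltf, which encodes lactoferrin, and Il18 to Tff1 (0.867), the keratinocyte gene Sbsn and LOC102631757. Il1r2 was nearest to Pqlc1 (0.886), Tuba4a and Eif6. Il1r1 lay nearest to Ugcg (0.759), Hpse and Osmr, a receptor of oncostatin M, and Il1rl1 to Plxnc1 (0.864), Adgre4 and Gm16548. The lowest best match was that of Il1rap, with Cblb (0.729), Zdhhc17 and Abcb1a.

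The other ligands and receptors of the family, a list of 12 of which 11 were tested, were called higher for 4 and lower for 0 in UN against U, for 7 and 0 in UT against U, and for 8 and 0 in the bladder, where 8.44%, 16.5% and 21.7% of all genes were called higher. Their median log2 fold change was 2.0, 2.37 and 3.19, and 1.86 in UN against U with a gene absent from U set to its bound. In the ureter both chains of the interleukin-18 receptor were among them. Il18rap rose by 2.28 ± 0.45 in UN against U (adjusted p = 0.00148) and Il18r1 by 2.13 ± 0.55 (adjusted p = 0.0134) on the log2 scale, and Il18r1 by 3.09 ± 0.55 in UT against U (adjusted p = 7.25e-05). In the bladder Il18rap was called (2.2 ± 0.58, adjusted p = 0.00828) and Il18r1 was not (0.77, adjusted p = 0.373). Il1f6 (interleukin-36 alpha) was at 0 in U and untreated bladder, and its mean of 0.386 CPM in UT was at least 11-fold higher than 3 counts over the U group allow, but 2.82-fold without UT 4, which held 3.26 CPM, and the call was then lost (adjusted p = 0.103). In BBN bladder it was at least 24.3-fold higher and Il1f8 (interleukin-36 beta) at least 23.6-fold higher on the same bound, with counts in 7 and 8 of 10 libraries. Without BBN bladder 7 these bounds were 9.35-fold and 13.1-fold, and both calls were lost without any 1 of the 3 untreated bladders. Over the fits without 1 library, 2 to 8 of these 11 genes were called higher in the bladder, 3 to 5 in UN against U and 5 to 7 in UT against U. In UT against UN, 0 of 11 were higher and 1 lower, Il1rapl2, an accessory-like protein, by -3.96 ± 1.10 (adjusted p = 0.0796), with 15.4 CPM in UN 6, the shallowest ureter library, and at most 0.43 in UT. Without UN 6 the value was -1.11 (adjusted p = 0.685).

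Genes that process interleukin-1 precursors, 18 inflammasome and protease genes, were called higher for 5 and lower for 0 in UN against U, for 6 and 1 in UT against U and for 8 and 1 in the bladder, where the fits without 1 library gave 4 to 9 higher. Of all genes tested, 8.44% were called higher and 0.971% lower in UN against U, 16.5% and 9.96% in UT against U, and 21.7% and 8.14% in the bladder. Pycard, the adaptor ASC, had a median of 8.31 CPM in U, 37.7 in UN and 52.4 in UT and rose by 2.42 ± 0.47 in UN against U (adjusted p = 0.00129). Mefv (pyrin) rose by 3.94 ± 0.78 there (adjusted p = 0.00143) and by 4.68 ± 0.78 in UT against U, and by 4.58 and 5.32 without U 2R. Nlrp6, an epithelial sensor, was called in UT against U at 4.72 ± 1.76 (adjusted p = 0.0397), with 18.6 CPM in UT 4, the library with kidney tubule markers, and a UT median of 0.064, and the value was 5.60 without U 2L. It did not pass the filter on low counts, and so had no test, without UT 4, BBN bladder 3 or BBN bladder 4. Aim2, the DNA sensor, rose in the bladder by 2.73 ± 0.63 (adjusted p = 0.00261), and Nlrp1a by 2.72 ± 0.88 (adjusted p = 0.0291). Nlrp1a had a median of 3.66 CPM in BBN bladder but 34.8 in BBN bladder 3, the shallowest library, and the value was 2.3 without it. Among those called lower were Elane, neutrophil elastase, in UT against U by -2.29 ± 0.95 (adjusted p = 0.0638), and the calpain Capn1 in the bladder by -1.48 ± 0.56 (adjusted p = 0.0513). Casp1, which cleaves the precursors, had medians of 17.8 CPM in U, 14.6 in UN and 17.5 in UT, and was called in the bladder at 1.47 (adjusted p = 0.0495) but not in the ureter, while the effect in UN against U minus that in the bladder was -1.33 ± 0.67 (adjusted p = 0.382). The bladder calls of Casp1 and Capn1 were lost without any 1 of the untreated bladders, that of Nlrp1a without untreated bladder 2 or 3, and the Elane call without U 2R or U 2L.

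Of 21 intracellular signalling genes downstream of Il1r1, 2 were called higher in UN against U, 3 in UT against U and 1 in the bladder, with 0 lower. The background of all genes called higher was 8.44%, 16.5% and 21.7%, so these counts were near or below it. Their median log2 fold change in the bladder was -0.06, where all genes had 0.23. Map3k8, a kinase of that pathway, was higher in all 3, by 1.46 ± 0.33 in UN, 1.57 ± 0.32 in UT and 1.92 ± 0.44 in the bladder, and Nfkbia, the NF-kB inhibitor that NF-kB itself induces, by 1.17 ± 0.28 in UN (adjusted p = 0.00746) and 1.53 ± 0.27 in UT (adjusted p = 5.54e-05). The UN call of Nfkbia was lost without UN 3 (0.98).

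Genes known to respond to interleukin-1, a list of 20 chemokines, cytokines and acute phase genes that other signals also induce, were called higher for 18 and lower for 0 in UN against U and in UT against U, and for 16 and 0 in the bladder, beside 8.44%, 16.5% and 21.7% of all genes called higher. Without 1 library the counts were 13 to 18 in UN against U (13 without UN 3), 18 in UT against U and 9 to 17 in the bladder. Lcn2, the neutrophil and epithelial iron-binding protein, had a median of 1.18 CPM in U, 43.7 in UN and 176 in UT, and rose by 7.84 ± 1.67 in UN against U (adjusted p = 0.00276). UN 3 held 1408 CPM of it, and without UN 3 the value was 6.4 (adjusted p = 0.0113). In UT against U, Lcn2 rose by 7.73 ± 1.64 (7.0 without UT 3) and Cxcl5 by 7.92 ± 1.06 (adjusted p = 2.92e-06, and 7.32 without UT 2). Ccl20 was at 0 in U and at least 11.1-fold higher in UN (6.71-fold without UN 7) and 39.1-fold higher in UT than 3 counts over the U group allow. In the bladder, Cxcl3 and Cxcl2 were at 0 without BBN and at least 112-fold and 32.6-fold higher with it, with counts in 10 of 10 libraries, and Ccl20 was at least 25-fold higher. In UT against UN, 4 of 20 were higher and 0 lower, where 0.886% of all genes were called higher, namely Cxcl3 by 3.39 ± 0.94 (adjusted p = 0.0796), Csf3 by 2.79 ± 0.72 (adjusted p = 0.0646), Cxcl5 by 2.52 ± 0.70 (adjusted p = 0.0796) and Tnfaip3 by 1.15 ± 0.34 (adjusted p = 0.0884). The first 3 serve neutrophil recruitment and production, and their highest UT values, 124, 6.63 and 174 CPM, were all in UT 2. Without UT 2, 0 of the 20 were called: Cxcl3 stood at 1.64 (adjusted p = 0.224), Csf3 at 2.58 (adjusted p = 0.118), Cxcl5 at 1.92 (adjusted p = 0.155) and Tnfaip3 at 0.96 (adjusted p = 0.163). Over the 37 fits without 1 library the count ran from 0 to 8. The call was lost in 7 of these fits for Cxcl3, 4 for Csf3, 9 for Cxcl5 and 17 for Tnfaip3. Cxcl3 stood at 4.46 without UN 3.

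The untreated tissues differed in 0 members by the call. The 3 untreated bladders lay above all 6 U libraries for Il1r2, Il1r1 and Il1rn and below all of them for Il33. Of all genes tested, 26.3% had every untreated bladder above every U library and 20.1% had every one below. Such separation was therefore not particular to the members. The log2 difference was 1.31 ± 0.65 for Il1rn (adjusted p = 0.212) and 0.67 ± 0.37 for Il1r1 (adjusted p = 0.285). For Il1a, Il1b and Il18 the ranges overlapped. The urothelial marker sum was 18018 to 18926 CPM in untreated bladder and 1777 to 3312 CPM in U, and 8 of 10 urothelial markers were called higher in the bladder. Adipocyte markers were lower for 6 of 6 (399 to 2032 CPM against 47610 to 81741 CPM), and smooth muscle markers higher for 4 of 7 (8232 to 9812 CPM against 2054 to 3579 CPM), as were 3 of 8 fibroblast markers. The squamous keratinocyte sum was 593 to 664 CPM in untreated bladder and 46.1 to 75.8 CPM in U, and 2 of 11 of these markers, Ivl (3.71 ± 0.71, adjusted p = 0.000736) and Krt1 (3.01 ± 1.13, adjusted p = 0.075), were called higher. Their part in these differences was not tested. Of the pathway lists, 1 of the 11 other family genes was higher in untreated bladder (Il18r1, by 1.61 ± 0.64, adjusted p = 0.0959), 2 of 18 processing genes were higher and 3 lower, 0 of 21 signalling genes were called, and 1 of 20 response genes was higher and 2 lower, where 8.61% of all genes were called higher and 6.62% lower. Higher were Pycard (1.74 ± 0.54, adjusted p = 0.0281), Capn1 (1.89 ± 0.62, adjusted p = 0.0393) and Csf3 (2.91 ± 1.03, adjusted p = 0.0567). Lower were the neutrophil granule proteases Prtn3 (-3.96 ± 1.26, adjusted p = 0.0328) and Elane (-4.42 ± 1.75, adjusted p = 0.0956), with Casp1 (-2.04 ± 0.59, adjusted p = 0.0181), Ptges (-1.57 ± 0.46, adjusted p = 0.0191), a prostaglandin synthase, and the matrix protease Mmp3 (-2.20 ± 0.85, adjusted p = 0.0836). Each of these 9 calls was lost in 1 to 18 of the 37 fits without 1 library, most often for Il18r1 and Elane. The value was -6.09 for Elane without untreated bladder 1, -5.02 for Prtn3 and -3.13 for Mmp3 without untreated bladder 2, and 3.50 for Csf3 without U 1L.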

How the data were processed

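WTS libraries of 37 ureter and bladder samples (SMARTer HT and Nextera XT, unstranded) were analysed. Per the labels, TopHat2 2.1.1 and Cuffdiff 2.2.1 are among the tools and GRCm38/mm10 is the build. The authors deposited estimated counts by symbol without normalization, and 21.1% of the values above 0 were fractional, so values were rounded here.

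The edgeR 4.0.16 quasi-likelihood test (R 4.3.3, TMM, filterByExpr) was fitted to all 37 libraries in 5 groups, and p-values were adjusted by Benjamini-Hochberg over 18959 genes. Calls needed an FDR below 0.1 together with 2-fold or more. Alternatives used DESeq2 1.42.0 and limma 3.58.1. Correlations used log2(CPM + 0.5). Values per kb used the summed exons of GENCODE vM21. The fit was tested on simulated counts.

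The mouse and side of each library come from its description label, which is the source of the pairing, since the titles number untreated ureters and bladders separately. Deviations from group means correlated with a median r of -0.0079 in 7 UT and UN pairs of a mouse and -0.0062 in 70 pairs across mice, in UT with BBN bladder 0.101 in 11 pairs and -0.0089 in 99, and in UN with BBN bladder -0.038 in 7 and 0.134 in 63. No 2 libraries were close enough to be copies (lowest chi-square per degree of freedom 7.71). By the labels, both ureters of an untreated mouse share an animal, as do the UT, UN and bladder libraries of a BBN-treated mouse. The main fit entered them as separate units, so its p-values measure the spread between libraries and not between animals.

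Members, gene lists and tests were chosen with earlier results of these data known. The members are named throughout, with up to 2 called genes of largest fold change in each direction per pathway list and comparison, and the 3 genes nearest to each member, of which 1 is not reported here. Casp1, and Cxcl5 and Tnfaip3 in UT against UN fall outside that rule and were named after their values were seen. Markers of mast cells, T cells, fibroblasts, endothelium and smooth muscle were also examined: in UN against U, 2 of 9, 0 of 9, 1 of 8, 0 of 7 and 0 of 7 were called higher and 0 lower. Of all genes, 8.44% were called higher and 0.971% lower there. Fits of the pathway genes without 1 library were added after seeing the data.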

Additional observations from a re-analysis of the deposited data

Results flagged for a closer look

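Among the 27 combinations of a member and a group of 4 to 10 libraries, 2 held a library whose gap to its nearest neighbour exceeded Dixon's critical value on log2(CPM + 0.5). Chance alone flags about 1 in 20 such groups. Il1a in U 3R stood at 0.307 (0.737 CPM, 9 counts), with the nearest U library at -0.358. Il1rn in U 2L stood at 0.497 (0.911 CPM), with the nearest at 1.48.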

How the results depend on the processing

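Beside the 37 fits that leave out 1 library, 14 further settings were computed where the libraries allowed: other tools, filters, size factors, covariates, the mouse as a block, and fewer libraries. The setting without UN 2, UT 4 and UT 9 together was chosen after seeing the data. With the mouse as a fixed replicate block, run for UT against UN, 0 members were called. In UT against U, 7 members were called in each fit without 1 library and 6 (without Il18) with libraries summed per mouse and group. In UN against U, the mouse as a random-effect replicate block called 3 on all 37 libraries, and 6 to 7 were called without 1 library. Libraries summed per mouse and group, a fit of fewer units, called 1, and why calls were lost was not tested. UT against UN gave 0 to 2 without 1 library (Il1a without UN 3, UN 7 or UT 9, and Il33 without UN 3). The difference of BBN effects was called for 1 member with DESeq2 (Il18), 3 with voom (Il1r1, Il18, Il33), 1 with the library code range as covariate (Il18), and 0 to 1 without 1 library (Il18 without UN 3). Untreated bladder against U gave 1 with DESeq2 (Il1r2), 3 with voom (Il1rn, Il1r2, Il33), 1 with RNA integrity (Il33), 1 with the code range, 1 without the 4 shallow libraries, and 0 to 1 without 1 library (Il1r2 without UN 3 or BBN bladder 3, 6, 8 or 10). In the bladder 4 to 6 were called without 1 library, 4 of them without untreated bladder 3. RLE size factors moved the median of all genes by 0.18 in the bladder comparison and by -0.19 in the difference of BBN effects.

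No called member changed sign in these settings, but the fold changes of called members moved by more than 1.5 times in some. The values furthest from those reported follow on the log2 scale, with some others. In UN against U, limma-trend gave 2.06 for Il1a (not called), 2.89 for Il1b, 3.23 for Il1rn, 2.72 for Il1r2 and 2.17 for Il33, voom 2.16 for Il33, and the random block 3.18 for Il1b and 2.98 for Il1r2 (neither called). In UT against U, Il1a was 4.23 with limma-trend and 4.30 with DESeq2, Il1r2 was 3.66 and Il33 3.16 with RNA integrity, and Il1r2 5.0 with the code range. In the bladder, limma-trend gave 3.84 for Il1a, 3.40 for Il1b and 2.33 for Il1r2, and voom 2.42 for Il1r2. The log2 values that changed sign had not been called, and the cause was not tested. Il1rap, UT against U, was -0.018 with RLE and DESeq2, -0.030 with limma-trend, -0.016 with voom, -0.020 with the random block, -0.0016 without the shallow libraries, -0.0099 without UN 2, UT 4 and UT 9, and -0.13 to 0.11 without 1 library. Il1b, UT against UN, was -0.097 with RNA integrity, and -0.25 to 0.97 without 1 library. Il1r1, UT against UN, was -0.026 with RNA integrity, -0.079 without the shallow libraries, and -0.086 to 0.29 without 1 library. Il1rl1, UT against UN, was -0.19 with limma-trend, -0.11 with voom, -0.072 with the fixed replicate block, -0.0086 without UN 2, UT 4 and UT 9, and -0.15 to 0.34 without 1 library. Il18, UT against UN, ran from -0.31 to 0.098. Il1r1, BBN bladder against untreated bladder, was 0.041 with bladder libraries alone, 0.12 with RLE and DESeq2, 0.087 with RNA integrity, 0.15 without the shallow libraries, 0.0069 without UN 2, UT 4 and UT 9, and -0.15 to 0.052 without 1 library. Il1rap, BBN bladder against untreated bladder, was -0.095 with limma-trend and RNA integrity, -0.22 with voom, -0.21 with the random block, -0.24 without the shallow libraries, and -0.11 to 0.16 without 1 library. Il1rn, BBN effect in ureter (UN against U) minus BBN effect in bladder, was -0.092 with RLE and DESeq2, -0.32 with limma-trend, -0.057 with voom, -0.080 with the random block, -0.26 with RNA integrity, -0.067 with the code range, -0.10 without the shallow libraries, and -0.25 to 0.30 without 1 library. In the same difference, Il1r2 was 0.39 with limma-trend, 0.63 with voom, 0.54 with the random block and -0.88 to 0.66 without 1 library, and Il1b ran from -0.71 to 0.31. Il1a, untreated bladder against U, was -0.30 with RNA integrity and -0.028 to 0.66 without 1 library.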
